A study of Homo sapiens with 12 samples.

Results

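RPS6, PLIN2 and 6 genes beside them on the short arm of human chromosome 9 (RRAGA, HAUS6, DENND4C, ACER2, SAXO1 and SLC24A2) were followed through RNA-seq libraries of cells with and without hnRNP UL1, 8 genes of the 61163 in the count tables. RPS6 and PLIN2 were picked because their counts were lower in the knockout than in the wild type, and the other 6 because their symbols are listed as neighbours around 19 Mb of the chromosome. The values of the 8 genes in the knockout and the wild type are therefore a description and carry no test. The question was whether the lower levels of RPS6 and PLIN2 were shared by the genes around them, and the tests that bear on it are those of the 122 other listed genes that start within 5 Mb of RPS6.

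The cells were HEK293T, an established line from human embryonic kidney with a viral large T antigen, either unedited (HEK WT) or with HNRNPUL1 knocked out by CRISPR-Cas9 with guides to exons 2 and 3 (HEK UL1 KO). No other allele or treatment was given, and whether HEK UL1 KO is 1 clone is not given in the sources used here, so what belongs to the knockout and what belongs to this derived line cannot be told apart. Each line was separated into a nucleolar fraction (NO) and a fraction with the cytoplasm and the rest of the nucleus (CN), with 3 replicates of each line and fraction and 12 libraries in all. The design text calls the replicates biological without saying whether they were separate cultures or fractionations, so the p-values measure the spread between these libraries.

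The 8 genes work in different processes and share a stretch of the chromosome. RPS6 encodes a protein of the small (40S) ribosomal subunit that is phosphorylated by the S6 kinases downstream of mTORC1, the kinase complex that couples amino acids to growth, and RRAGA encodes RagA, a GTPase that brings mTORC1 to the lysosome when amino acids are present. PLIN2 encodes perilipin 2, a coat protein of lipid droplets that is degraded when it is not bound to one, and its transcription is driven by PPAR receptors when fatty acids are plentiful. ACER2 encodes a ceramidase of the Golgi that makes sphingosine, HAUS6 a subunit of augmin, which branches microtubules in the spindle, and SAXO1 a protein that stabilises microtubules of cilia and centrioles. DENND4C encodes an exchange factor for RAB10, a GTPase of membrane traffic, and SLC24A2 a sodium/calcium-potassium exchanger of neurons and retina.

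On chromosome 9 of GRCh38.p14, the genes followed each other in the order SAXO1 (chr9:18927650-19049339, minus strand), RRAGA (chr9:19049427-19051025, plus), HAUS6 (chr9:19053141-19102904, minus), PLIN2 (chr9:19108388-19127492, minus), DENND4C (chr9:19230513-19374281, plus), RPS6 (chr9:19375715-19380236, minus), ACER2 (chr9:19409009-19452505, plus) and SLC24A2 (chr9:19507455-20307892, minus), a span of 1380243 bases. The gaps between neighbours differed widely. SAXO1 and RRAGA begin back to back with 87 bases between them, DENND4C and RPS6 end 1433 bases apart, and 103020 bases separate PLIN2 from DENND4C. No member overlapped another member, but the small RNA gene SCARNA8 (131 bases) lies inside HAUS6 on the same strand, and the uncharacterised gene LOC105375988 overlaps SLC24A2 by 55704 bases, so that reads of these pairs may not be told apart.

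The start regions of the 5 genes with a log2 fold change below -1 in both fractions are shown, because a shared promoter sequence is one thing that neighbours can have in common. Each stretch runs from 100 bases before to 20 bases after the RefSeq start, 5′ to 3′ on the gene's own strand, and was taken from RefSeq for GRCh38.p14, except that of RRAGA, which was read from the genome of the same build. Capitals mark the letters searched for on both strands: the GC box GGGCGG, the ETS site CCGGAAG, the E-box CACGTG, the TATA box TATAAA, the palindrome CTCGCGAG and, from the first transcribed base of RPS6, an unbroken run of pyrimidines, and none of these overlap in the stretches shown.
RPS6, chr9:19380217-19380336, minus: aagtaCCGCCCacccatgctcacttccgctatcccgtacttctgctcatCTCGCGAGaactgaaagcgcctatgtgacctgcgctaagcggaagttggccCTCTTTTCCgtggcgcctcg
RRAGA, chr9:19049327-19049446, plus: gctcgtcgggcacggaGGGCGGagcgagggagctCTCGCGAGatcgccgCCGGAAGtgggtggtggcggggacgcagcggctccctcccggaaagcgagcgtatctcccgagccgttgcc
PLIN2, chr9:19127473-19127592, minus: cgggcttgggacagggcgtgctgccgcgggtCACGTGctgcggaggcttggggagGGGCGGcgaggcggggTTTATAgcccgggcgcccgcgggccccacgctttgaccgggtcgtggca
HAUS6, chr9:19102885-19103004, minus: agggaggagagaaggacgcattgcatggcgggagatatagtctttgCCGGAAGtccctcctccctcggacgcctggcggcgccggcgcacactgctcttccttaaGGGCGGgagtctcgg
DENND4C, chr9:19230413-19230532, plus: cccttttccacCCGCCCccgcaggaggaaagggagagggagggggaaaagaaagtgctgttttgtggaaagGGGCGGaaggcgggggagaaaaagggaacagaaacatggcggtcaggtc

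The GC box was the one motif found in all 5 of these promoters. Counted over the RefSeq windows of 300 bases, the GC box was in the promoters of all 8 members but SLC24A2 and in 45.0% of 35116 promoters, and the ETS site was in those of HAUS6, RPS6, RRAGA and SAXO1 and in 10.3% of promoters. The palindrome CTCGCGAG, held by 1.02% of promoters, was in those of RPS6, RRAGA and SAXO1. For RRAGA and SAXO1, the palindrome and the ETS site are each the same stretch read from opposite strands. RPS6 began with CTCTTTTCC, a run of 9 pyrimidines of the kind known as the start of ribosomal protein mRNAs. At their start, 4.07% of promoters had a run of 5 or more pyrimidines, counted with a C as its first base. PLIN2 differed from the others in having a TATA box (11.5% of promoters), and its E-box (7.26%) was shared within these windows with a promoter of SAXO1 other than the one beside RRAGA. The CCAAT box, CCAAT, held by 34.6% of promoters, was in no member's window. These matches are a description of letters and were not tested for use in these cells.

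The libraries held 37141666 to 104040073 counts each, of which 55.3 to 78.7% were on rRNA genes. HNRNPUL1, the edited gene, was lower in every HEK UL1 KO library, with 3.57 to 4.09 CPM (counts relative to the library size times edgeR's TMM factor, brought to a common total) against 9.30 to 21.6 in HEK WT in NO, and 4.75 to 4.86 against 15.4 to 18.0 in CN. Replicate 3 of HEK WT NO stood apart from its group: it had the lowest HNRNPUL1 level of the HEK WT libraries and the most counts on 408 olfactory receptor genes (93.1 CPM, against 49.6 and 62.4 in replicates 1 and 2 and 78.2 to 82.0 in HEK UL1 KO NO). Its part in the results was not tested, and values without it are given where it matters. All 5 markers of HEK293T were detected in each group, and some of them moved with the genotype. Their sum was 48.7 to 61.3 CPM in HEK WT and 28.0 to 28.9 in HEK UL1 KO in CN, and 21.1 to 39.5 against 14.4 to 18.1 in NO. VIM was lower in the knockout (34.5 to 50.3 against 12.5 to 14.9 CPM in CN) and KRT8 higher (0.621 to 0.742 against 2.98 to 3.39 CPM). KRT18 was higher as well (0.863 to 1.26 against 1.89 to 2.82 CPM in CN). NEFL (4.57 to 5.10 against 4.62 to 4.75 CPM in CN) and NEFM (4.58 to 7.53 against 3.87 to 4.63 CPM) overlapped between the genotypes, also in NO. The 4 markers of other cells summed to 0.806 to 2.72 CPM, and the part of these differences in the results was not tested.

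RPS6 was the most abundant of the 8 genes, also per kilobase of exon, and was lower in all HEK UL1 KO libraries than in any wild-type library of its fraction. In CN, its level was 88.8, 78.8 and 78.6 CPM in the HEK WT libraries and 32.6, 33.8 and 36.1 CPM in the HEK UL1 KO libraries. The knockout libraries were close to each other and held 41.6% of the wild-type mean, a log2 fold change of -1.26 (standard error 0.0825). In NO, the level was 92.3, 112 and 44.6 CPM in HEK WT and 22.4, 21.3 and 28.0 CPM in HEK UL1 KO (log2 fold change -1.80, standard error 0.379). The groups did not overlap, but the wild-type libraries ranged from 44.6 to 112 CPM and the lowest was replicate 3. A lower level in bulk RNA can come from fewer cells that express a gene or from less RNA per cell, which cannot be told apart here.

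RRAGA, the Rag GTPase gene, was lower by a larger factor than RPS6 in CN. Its CN level was 3.92, 3.54 and 4.67 CPM in HEK WT and 1.23, 1.31 and 1.13 CPM in HEK UL1 KO, 30.4% of the wild-type mean (log2 fold change -1.72, standard error 0.137). In NO, it was 3.44, 3.99 and 2.34 CPM in HEK WT and 1.10, 1.08 and 1.67 CPM in HEK UL1 KO (log2 fold change -1.35, standard error 0.303). The genotypes did not overlap in either fraction.

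PLIN2, the perilipin, was the member with the lowest knockout level relative to the wild type. In CN, its level was 1.43, 1.69 and 1.69 CPM in HEK WT and 0.0821, 0.0133 and 0.0675 CPM in HEK UL1 KO, from 120, 141 and 134 counts and from 6, 1 and 4 counts. The transcript was thus close to the limit of detection in CN of the knockout, and the wild-type level was 30.2 times the knockout level when counts were pooled (95% exact interval 16.7 to 60.9, which covers counting error only), and the log2 fold change was -4.87 (standard error 0.334). In NO, it was 2.00, 1.95 and 1.42 CPM in HEK WT and 0.316, 0.447 and 0.235 CPM in HEK UL1 KO, from 63 to 84 counts and from 10 to 35 counts. There the wild-type level was 5.28 times the knockout level (3.98 to 7.08), a log2 fold change of -2.42 (standard error 0.342), so PLIN2 RNA was still counted in every knockout NO library.

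ACER2, the ceramidase gene, was lower by a smaller factor. Its CN level was 1.85, 1.81 and 1.81 CPM in HEK WT and 1.23, 1.40 and 1.45 CPM in HEK UL1 KO, which is 74.6% of the wild-type mean (log2 fold change -0.42, standard error 0.133). In NO, it was 3.23, 2.88 and 2.29 CPM in HEK WT and 1.85, 1.44 and 1.29 CPM in HEK UL1 KO (log2 fold change -0.86, standard error 0.280, and -0.03 when libraries were scaled to U3). The genotypes did not overlap in either fraction. U3, the small nucleolar RNA SNORD3A, was itself lower in NO of HEK UL1 KO (3887 to 5741 CPM, against 8040 to 8741 in HEK WT). Scaling to it moved the median log2 fold change of all genes in NO to 0.83.

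HAUS6, the augmin subunit gene, followed RPS6 closely. In CN, its level was 31.9, 29.2 and 28.5 CPM in HEK WT and 12.8, 12.9 and 11.4 CPM in HEK UL1 KO (log2 fold change -1.27, standard error 0.0807), and in NO it was 30.6, 35.4 and 17.0 CPM in HEK WT and 8.46, 6.83 and 12.1 CPM in HEK UL1 KO (log2 fold change -1.60, standard error 0.344). The groups did not overlap, and replicate 3 was again the lowest of the wild-type NO libraries. SAXO1, the other microtubule gene, was low and did not follow it in CN, where the level was 1.38, 1.40 and 0.873 CPM in HEK WT and 1.42, 1.45 and 1.52 CPM in HEK UL1 KO (log2 fold change 0.26, standard error 0.188, and -0.11 when libraries were scaled to GAPDH). In NO, SAXO1 was 3.62, 2.82 and 4.15 CPM in HEK WT and 2.42, 2.28 and 1.83 CPM in HEK UL1 KO (log2 fold change -0.70, standard error 0.272, and 0.11 when libraries were scaled to U3). One start region of SAXO1 is shared with RRAGA, and another lies apart from it. Every knockout library was above every wild-type library for SAXO1 in CN (1.42 against 1.40 CPM at the nearest) and below for RRAGA. Which start of SAXO1 was used was not tested.

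DENND4C, the RAB10 exchange factor gene, had nearly the CN fold change of RPS6, towards which it is transcribed from the opposite strand. Its CN level was 16.3, 15.6 and 17.7 CPM in HEK WT and 6.82, 7.36 and 6.33 CPM in HEK UL1 KO (log2 fold change -1.27, standard error 0.0839), and its NO level was 14.0, 16.9 and 10.7 CPM against 6.03, 4.52 and 6.85 CPM (log2 fold change -1.26, standard error 0.294). The groups did not overlap. SLC24A2, the exchanger gene at the other end of the stretch, had CN levels of 5.17, 5.52 and 3.72 CPM in HEK WT and 3.67, 3.27 and 4.25 CPM in HEK UL1 KO, which overlapped (log2 fold change -0.37, standard error 0.152). In NO, it was 19.0, 14.4 and 28.0 CPM in HEK WT and 13.8, 13.3 and 14.0 CPM in HEK UL1 KO (log2 fold change -0.58, standard error 0.307, and 0.25 when libraries were scaled to U3). Replicate 3 of HEK WT NO, the lowest of its group for RPS6, RRAGA, PLIN2, HAUS6, DENND4C and ACER2, was the highest for SLC24A2 and SAXO1.

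**Figure D1:**
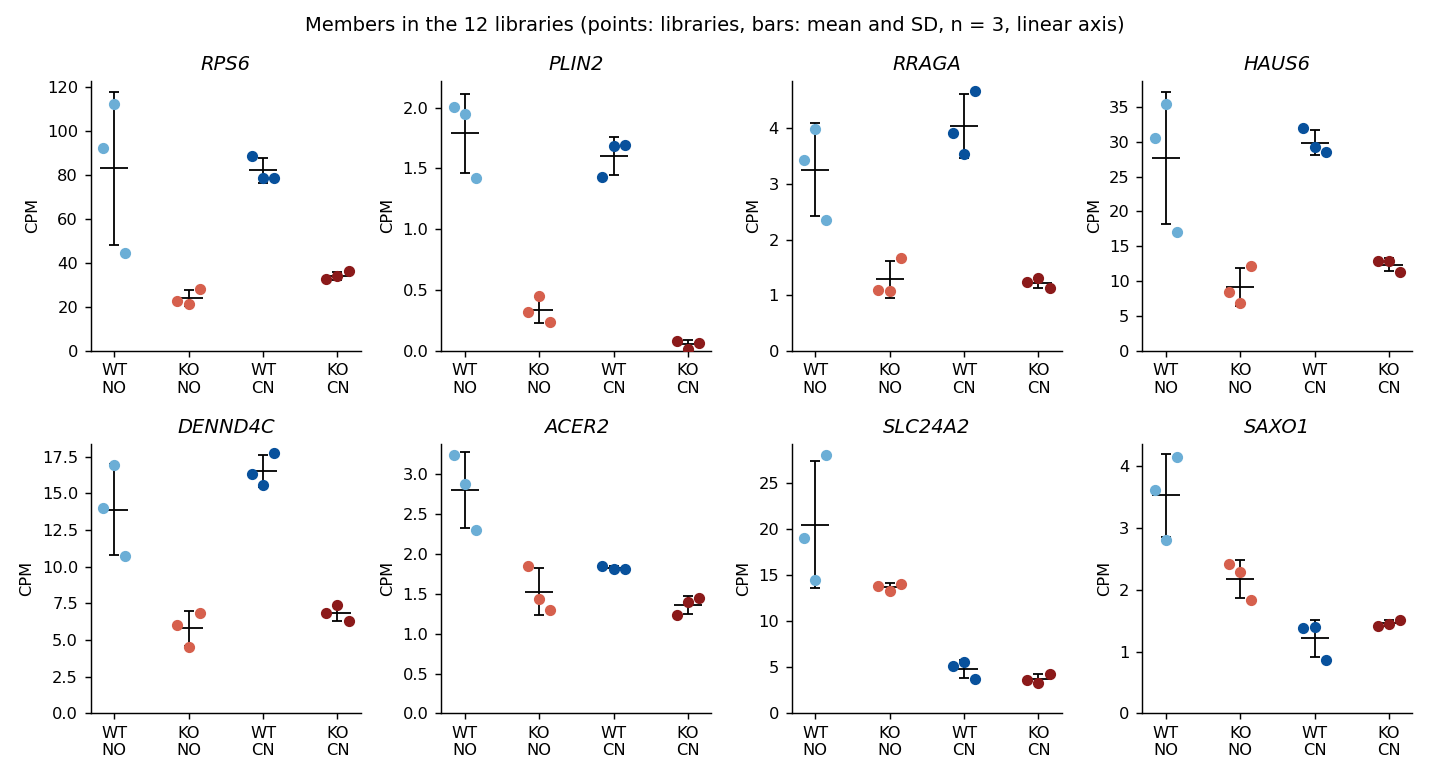
The level of each member in the 12 libraries, in CPM on a linear axis that starts at 0; points are libraries and bars are the mean and SD of 3 libraries. In CN, RPS6, PLIN2, RRAGA, HAUS6, DENND4C and ACER2 were lower in all HEK UL1 KO libraries, SLC24A2 overlapped and SAXO1 did not overlap and was higher, while in NO all 8 were lower without overlap.

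Counted over the 8 members, 6 had an adjusted p under 0.05 by edgeR's quasi-likelihood test with Benjamini-Hochberg adjustment and were lower in CN (22.3% of the 27234 genes tested), and 4 were in NO (0.574% of 34836). In CN, 6 of 8 were lower without overlap of the libraries (28.1% of all genes) and 1 was higher without overlap (24.7%), and in NO 8 of 8 were lower without overlap (9.17%). A log2 fold change below -1 was found for 5 of 8 members in each fraction (4.23% of all genes in CN and 3.49% in NO). Because the genes were picked with this comparison known, nothing is read from these counts. The median log2 fold change of the members was -1.27 in CN and -1.30 in NO, against 0.04 and 0.00 for all genes tested. The zero of this scale depends on the scaling. Total counts in place of TMM moved the median of all genes to 0.24 in CN and 0.40 in NO, and a single reference gene moved it to -0.31 in CN (GAPDH) and 0.83 in NO (U3), while the members' median relative to that of all genes stayed at -1.30 to -1.31 in CN and -1.19 to -1.32 in NO.

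Levels of different genes were compared as CPM per kilobase of exon. In CN of HEK WT, the order was RPS6 (30.4), HAUS6 (3.87), RRAGA (2.53), DENND4C (1.74), ACER2 (0.657), SLC24A2 (0.437), PLIN2 (0.320) and SAXO1 (0.134), and neighbours in this order had separate libraries except SLC24A2 and PLIN2, whose ranges touched at 0.338. In CN of HEK UL1 KO, PLIN2 went from the seventh to the last place, with 0.0108, below SAXO1 with 0.161. In NO of HEK WT, RPS6 was again first (30.8) and PLIN2 last (0.357), SLC24A2 (1.86) came after RRAGA (2.04), and neighbours below RPS6 overlapped in their libraries except ACER2 (1.01) and SAXO1 (0.389). In NO of HEK UL1 KO, RPS6 (8.86) was followed by SLC24A2 (1.25) and HAUS6 (1.18), and PLIN2 was last with 0.0664.

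The genes around the members were not picked by their values, so they show how far the lower levels reached. Of the other genes within 5 Mb of RPS6, 41 passed the filter on low counts in CN, and 14 of these were lower and 5 higher in the knockout with an adjusted p under 0.05 (edgeR's quasi-likelihood test with Benjamini-Hochberg adjustment). The 14 include SCARNA8 and RPS6P10, whose reads may be those of HAUS6 and RPS6, so they are not separate from the members. The share lower, 34.1%, was above the 22.3% of all genes and near the 36.4% of the rest of chromosome 9 (332 of 912), and 15.6% of all genes were higher. Scaled to GAPDH, 19 were lower and 2 higher (9068 and 1092 of all 27234 genes). DESeq2 gave 14 and 3 (5786 and 2826 of 55591 genes without the filter on low counts). In NO, 48 passed the filter, 3 were lower and 0 higher (0 higher with DESeq2 and 1 at an unadjusted p under 0.05). The share lower was 6.25%, against 0.574% of all genes and 1.64% of the rest of the chromosome (19 of 1158). The NO count was 0 when libraries were scaled by total counts or to U3, and 13 without replicate 3 of HEK WT NO. Over all genes, 3 and 89 of 34836 and 5546 of 36336 were then lower, so the window count moved together with that of all genes. The median log2 fold change of the other window genes was -0.22 in CN and -0.39 in NO, so the typical gene of the window was not as low as the members.

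Of the 4 other tested genes that lie between the first and the last member, those among HAUS6, PLIN2 and DENND4C were low and those beside SLC24A2 were not called. SCARNA8, a small Cajal body RNA gene inside HAUS6, was lower in CN (log2 fold change -2.07, standard error 0.368, adjusted p = 0.0014 by edgeR's quasi-likelihood test) and had a log2 fold change of -1.68 in NO (standard error 0.393, adjusted p = 0.0510), and its reads cannot be separated from unspliced HAUS6 RNA. RPS6P10, a processed copy of RPS6 that lies between PLIN2 and DENND4C, was lower in CN (log2 fold change -1.11, adjusted p = 0.0331). LOC105375988, which overlaps SLC24A2, had log2 fold changes of -0.07 in CN and -0.40 in NO that did not pass, and MAP1LC3BP1, between ACER2 and SLC24A2, was tested in NO alone (log2 fold change -0.38).

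Outside the stretch of the members, the largest falls among the called genes lay on the side towards the centromere. In CN, the 5 largest were of genes after SLC24A2: LOC105375989 (log2 fold change -1.91, standard error 0.336), MLLT3, a chromatin reader of the super elongation complex (-1.59, standard error 0.107), MTAP, which salvages methionine (-1.27, standard error 0.0684), KLHL9, an adaptor of a ubiquitin ligase needed in mitosis (-1.25, standard error 0.0831), and CDKN2B-AS1, the antisense RNA ANRIL (-1.19, standard error 0.0908). MLLT3 had 34.6, 35.8 and 44.6 CPM in the CN libraries of HEK WT and 12.6, 13.9 and 11.8 CPM in those of HEK UL1 KO, a gap wider than the spread of either group. MLLT3, KLHL9 and MTAP were also the 3 genes that fell in NO, with log2 fold changes of -1.40 (adjusted p = 0.0379), -1.59 (0.0183) and -1.44 (0.0346). CDKN2A, which encodes inhibitors of the cell cycle and overlaps CDKN2B-AS1 on the opposite strand, and FOCAD, between MLLT3 and KLHL9, fell in CN as well (-1.16 and -1.08). The strand setting of the counting is not given in the sources used here, so reads of CDKN2A and CDKN2B-AS1 may not be separated.

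The 5 genes that rose in CN lay more than 3 Mb from RPS6 on either side, and none passed in NO, where RNU6-14P had a log2 fold change of -1.73. They were DMRTA1 (log2 fold change 1.99, standard error 0.439), FREM1, a basement membrane protein gene (1.26, standard error 0.208), RNU6-14P (1.13, standard error 0.330), CLCN3P1 (0.75, standard error 0.246) and LINC01239 (0.66, standard error 0.177). DMRTA1 was near the filter, with 0.0382 to 0.132 CPM in CN of HEK WT and 0.274 to 0.338 CPM in HEK UL1 KO. Before the members, ADAMTSL1, the nearest protein-coding gene that was tested, had log2 fold changes of -0.23 in CN and -0.41 in NO.

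**Figure D2:**
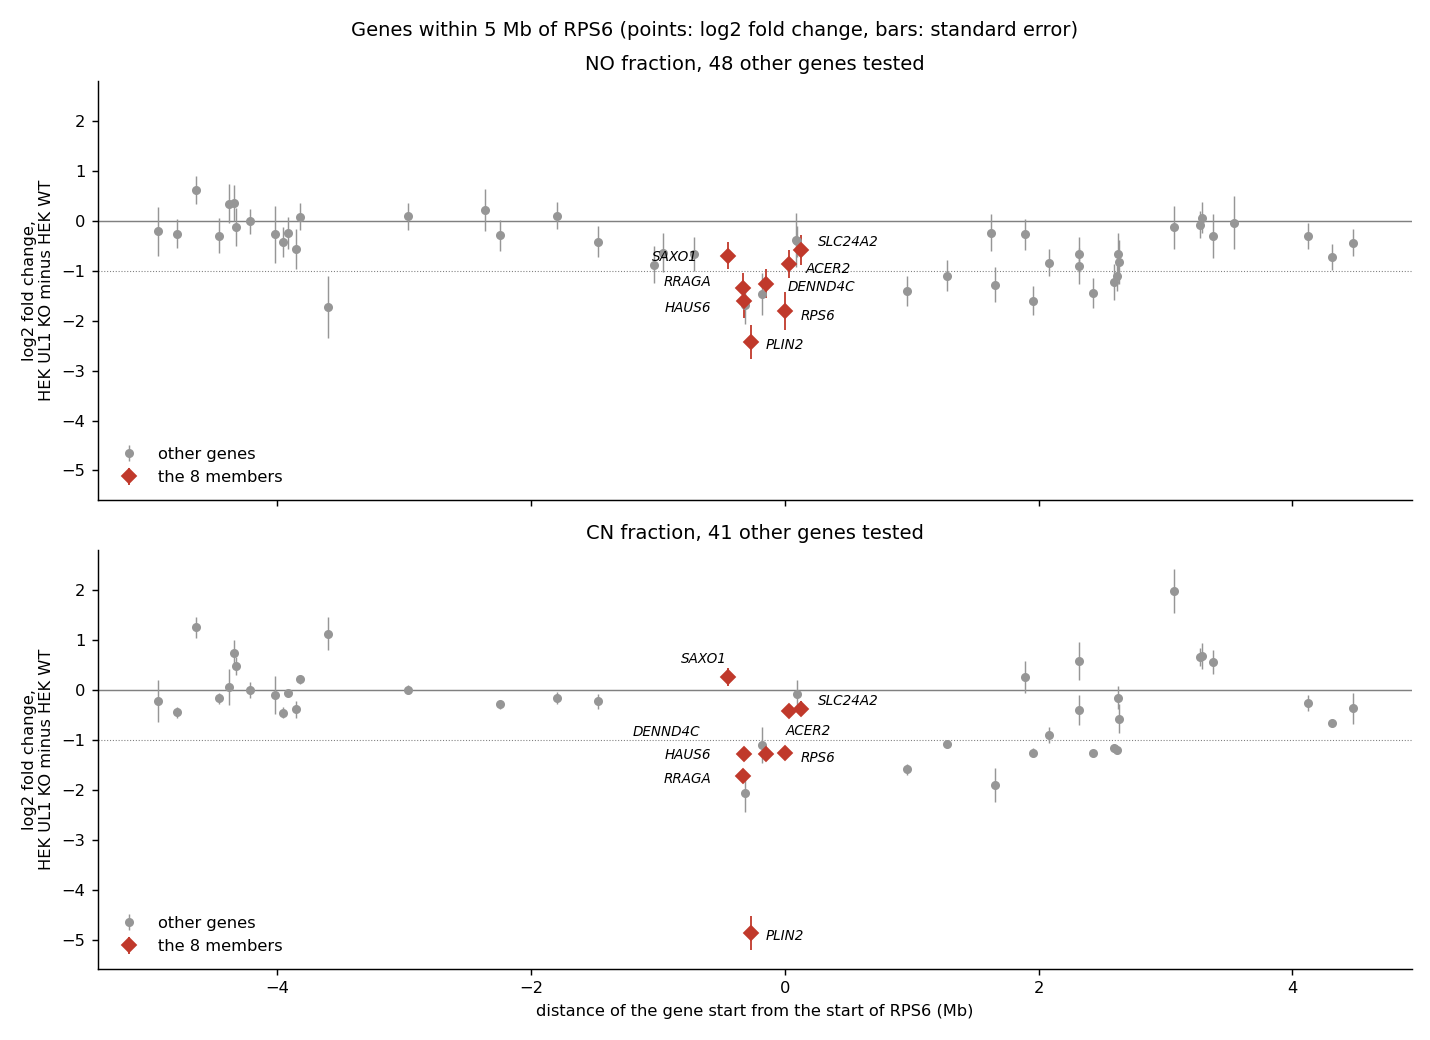
Log2 fold change (HEK UL1 KO minus HEK WT) against the distance of each gene's start from that of RPS6 in Mb, for NO and CN, with standard errors as bars; red diamonds are the 8 members and grey points the 48 (NO) and 41 (CN) other genes tested. In CN the values below -1 lie from the members to about 2.6 Mb after RPS6, with values above -1 among them. The members SAXO1, ACER2 and SLC24A2 are above -1, and grey points 2 to 3 Mb after RPS6 reach 0.58. The median of all the grey points in CN is -0.22, and the lowest grey point in NO is RNU6-14P (-1.73), before the members.

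The pattern went on along the chromosome. The stretches were set after the profile had been seen and use protein-coding genes with a mean of at least 100 counts, without the members, so they carry no test. In CN, the 33 genes from the telomere to RRAGA had a median log2 fold change of -0.18 (quartiles -0.35 to 0.06, lowest -0.49), and 0 of them were below -1. By edgeR's test, 12 of these were lower and 4 higher, or 0 and 4 with total counts and 19 and 2 when scaled to GAPDH. The 5 genes from there to CDKN2A (MLLT3, FOCAD, KLHL9, MTAP and CDKN2A) had a median of -1.25 and all were below -1, at the level of RPS6 (-1.26), HAUS6 (-1.27) and DENND4C (-1.27). The 53 genes from CDKN2A to the end of the short arm had a median of -0.75 (quartiles -0.89 to -0.62), and 52 of them were negative. The same stretches in NO had medians of -0.25 (35 genes), -1.40 (5 genes) and -0.87 (51 genes). Relative to the median of all genes, the stretch from RRAGA to CDKN2A was at -1.29 to -1.30 in CN under each of the scalings tried and DESeq2. Set against the range of these 5 genes in CN (-1.59 to -1.08), RPS6, HAUS6 and DENND4C lay within it, RRAGA and PLIN2 below it and ACER2, SLC24A2 and SAXO1 above it. In NO (-1.59 to -1.10), RRAGA and DENND4C lay within the range, RPS6, HAUS6 and PLIN2 below it and the other 3 above it.

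**Figure D3:**
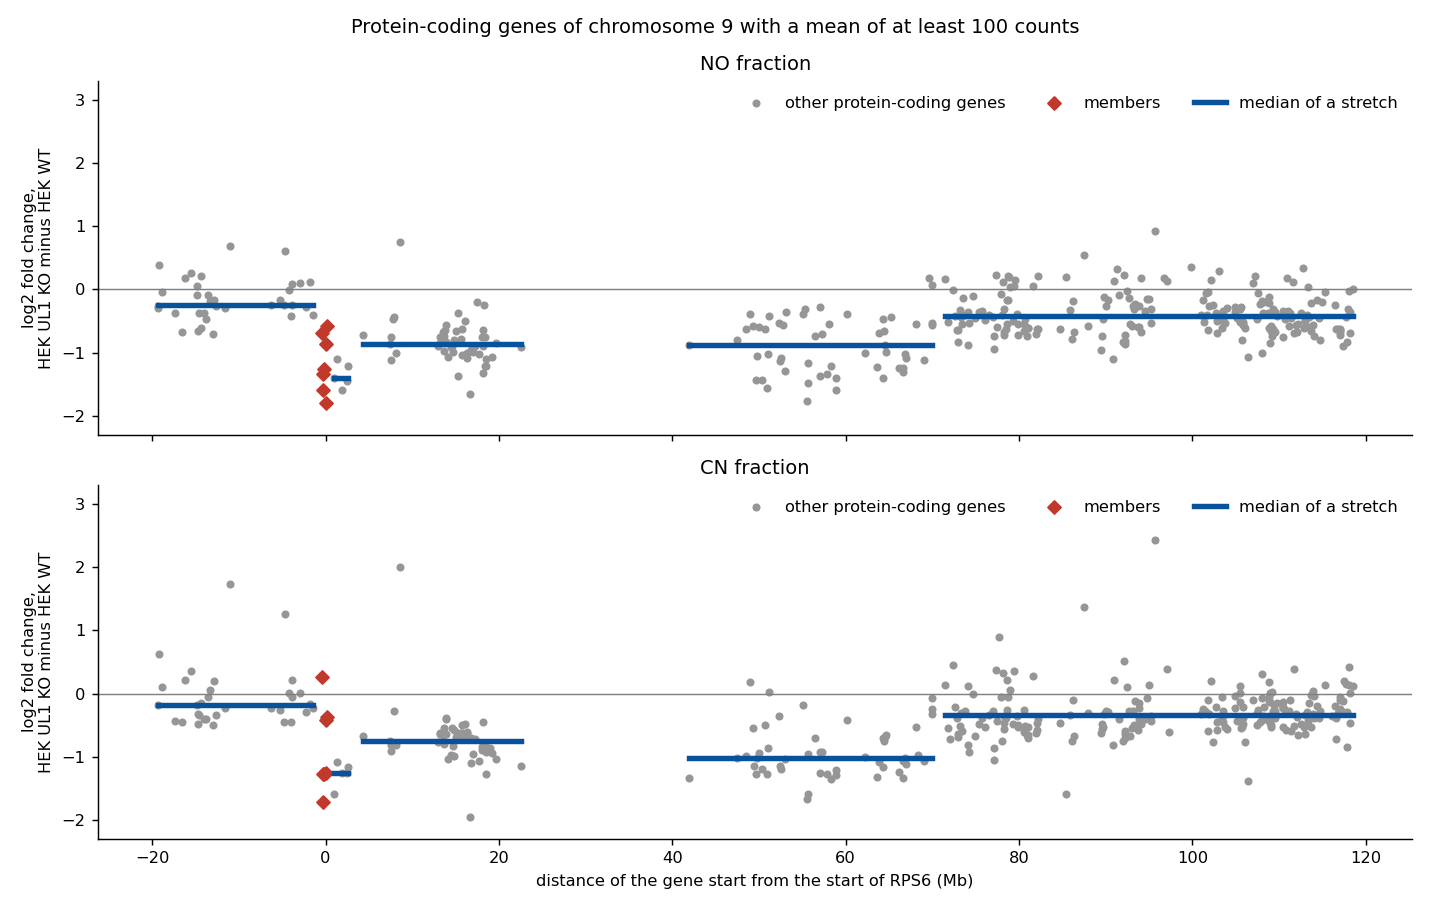
Log2 fold change (HEK UL1 KO minus HEK WT) of the protein-coding genes of chromosome 9 with a mean of at least 100 counts, against the distance of the gene's start from that of RPS6 in Mb, for NO and CN; grey points are genes, blue lines the median of a stretch, and red diamonds the 7 members with enough counts (PLIN2 is not drawn). The CN medians go from -0.18 before the members to -1.25 and then -0.75 on the rest of the short arm.

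The processed copies of RPS6, of which RPS6P10 lies in the window, were low together with it. The tables list 26 genes named RPS6P and a number, of which 6 were tested in CN, with 5 lower and a median log2 fold change of -1.17, and 5 in NO, with 0 called by edgeR's test (3 by DESeq2, and 5 lower at an unadjusted p under 0.05) and a median of -1.39. The 3 with the most counts were RPS6P25 (log2 fold change -1.08 in CN and -1.50 in NO), RPS6P9 (-1.29 and -1.39) and RPS6P1 (-1.31 and -1.31). Their summed counts were 7.52 to 10.4% of those of RPS6 in the CN libraries and 9.04 to 16.3% in NO. These copies are near-identical to RPS6 and each read was allowed up to 20 alignments, so their reads may be those of RPS6 and their own levels are uncertain.

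Genes that work with the members but lie elsewhere were listed by their known roles, to see whether the partners moved with them. Of the genes of 32 other proteins of the 40S subunit, 20 were lower and 1 higher in CN (62.5% lower, against 22.3% of all genes), with a median log2 fold change of -0.37. The gene that was higher was RPS10 (0.31, standard error 0.0746, and -0.04 when libraries were scaled to GAPDH). The number lower was 5 with total counts and 28 when scaled to GAPDH. Over all 27234 genes, 1724 were lower and 3697 higher with total counts, and 9068 and 1092 when scaled to GAPDH. These are the counts to set beside this list and those below in CN. None of the 32 had RNA as low as RPS6 in either fraction by log2 fold change. This is a description, because RPS6 was picked by its low value in this comparison and the 32 were not. In NO, 0 of 32 passed in edgeR's test, 7 were lower in DESeq2 and 13 at an unadjusted p under 0.05, with a median of -0.62. Over all genes in NO, DESeq2 called 813 lower and 256 higher, of 58785 without the filter on low counts. The number of all genes at an unadjusted p under 0.05 was not counted. Both hold for the NO counts of the lists below as well.

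Of 24 genes of the mTORC1 axis, which includes the other Rag GTPases, their lysosomal anchor and the S6 kinases, 7 were lower and 2 higher in CN (29.2% lower, near the 22.3% of all genes, of which 15.6% were higher), with a median log2 fold change of -0.11 (0.09 with total counts). The counts were 1 and 2 with total counts and 11 and 1 when scaled to GAPDH. The largest fall was in SLC38A9, an arginine sensor of the lysosome (-1.31, standard error 0.128), and the largest rise in FNIP2, a partner of folliculin that acts on the Rag GTPases (0.83, standard error 0.0744). In NO, 0 of 24 passed in edgeR's test, 2 were lower in DESeq2 and 3 were lower and 1 higher at an unadjusted p under 0.05. The NO median was -0.45, or 0.43 when scaled to U3. Of 18 other lipid droplet genes tested in CN, 5 were lower and 2 higher (27.8% lower, also near that of all genes), or 2 and 2 with total counts and 6 and 0 when scaled to GAPDH. The median was 0.16 (-0.20 when scaled to GAPDH), and the called genes ran from PNPLA3, a lipase-like protein of the droplet (-1.03, standard error 0.197), to DGAT1, which makes triglycerides (1.12, standard error 0.242). Of 9 PPAR targets, ACADM, an enzyme of fatty acid oxidation, was lower (-1.12, standard error 0.0940) and 2 were higher, the larger being CD36, a fatty acid transporter (1.21, standard error 0.429), with a median of 0.17 (-0.19 when scaled to GAPDH, where 3 were lower and 0 higher). ACADM was also the only gene of all these lists that passed in NO (-1.38, standard error 0.310, adjusted p = 0.0414 by edgeR's quasi-likelihood test), where DESeq2 called 11 of the 122 listed genes lower and 2 higher and 24 were lower and 4 higher at an unadjusted p under 0.05. The low PLIN2 level was thus not shared by the median of either list of lipid genes.

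The counts for the partners of the remaining members depended on the scaling. Of 14 genes of augmin and the gamma-tubulin ring, 2 were lower (14.3%, against 22.3% of all genes) and 3 higher in CN, where 15.6% of all genes were higher. The median log2 fold change was -0.21 (0.01 with total counts). The counts became 0 and 2 with total counts and 6 and 0 when scaled to GAPDH. The called genes ran from HAUS7 (-0.44, standard error 0.137) to TUBGCP5 (0.56, standard error 0.0737). Of 13 genes of ceramide turnover, 6 were lower (46.2%) and 2 higher in CN, with a median of -0.23. The counts became 2 and 1 with total counts and 7 and 0 when scaled to GAPDH. Called values ran from DEGS1, which makes ceramide (-0.92, standard error 0.103), to CERS3, a ceramide synthase (1.03, standard error 0.286). RAB10, the GTPase of DENND4C, was lower in CN (-0.24, adjusted p = 0.0258, and -0.04 and not called with total counts), and the paralogs DENND4A and DENND4B had log2 fold changes of 0.04 and -0.33 that did not pass. Of the relatives of SLC24A2 and SAXO1 in CN, SLC24A1 was higher (1.11, standard error 0.124), and SLC24A3 (0.69), SAXO2 (0.02) and SLC24A4 (-0.04) did not pass. In NO, SAXO2 had -0.02, SLC24A4 0.16, SLC24A3 0.25, SLC24A5 0.49 and SLC24A1 0.92, DENND4A had -0.07, DENND4B -0.61 and RAB10 -0.26, and none passed.

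**Figure D4:**
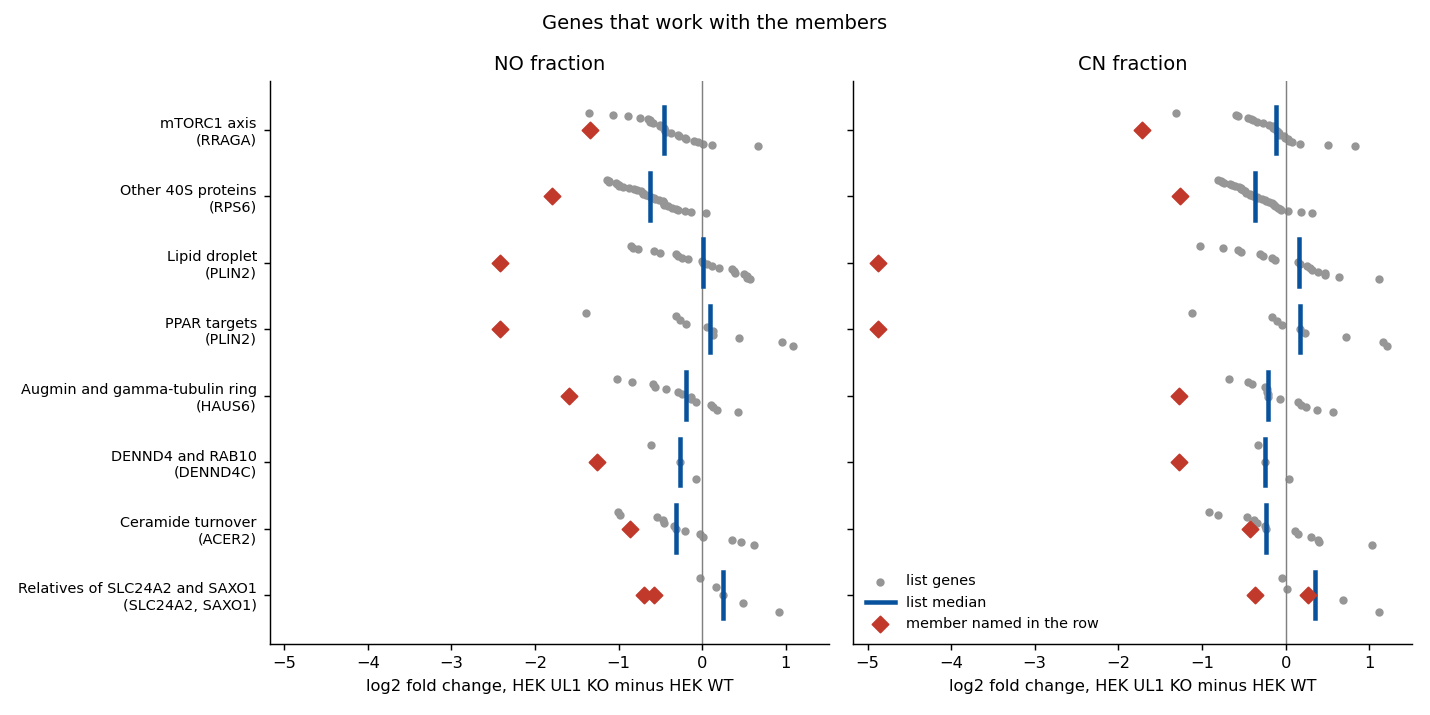
Log2 fold change (HEK UL1 KO minus HEK WT) of the genes listed with each member, for NO and CN; grey points are genes, spread within a row only to be seen, blue lines the median of a list and red diamonds the member named in the row. RPS6, PLIN2, HAUS6 and DENND4C lay below every gene of their lists in both fractions, RRAGA did so in CN, ACER2 lay among its list, and SLC24A2 in both fractions and SAXO1 in NO lay below theirs. RPS6 and PLIN2 were picked by their low values, so nothing is read from their places.

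The fractions were then compared within each line, a contrast other than the one by which RPS6 and PLIN2 were picked. It uses the same libraries, so in HEK UL1 KO the values of these 2 genes are a description and carry no test. In HEK WT, 5 of 8 members differed between NO and CN (52.8% of all 29340 genes tested did, 20.9% lower in NO and 31.9% higher). SLC24A2 and SAXO1 were higher in NO, with log2 fold changes (NO minus CN) of 1.69 (standard error 0.309, adjusted p = 0.00418 by edgeR's quasi-likelihood test) and 1.11 (standard error 0.284, adjusted p = 0.01). RRAGA, DENND4C and HAUS6 were lower in NO, with -0.80 (adjusted p = 0.00881), -0.74 (0.00509) and -0.61 (0.0258). The HAUS6 call was not kept with TMM without rRNA genes (adjusted p = 0.0601), with at least 10 counts in every library (0.0613), with the replicate block (0.0517) or without any 1 of the 3 CN libraries (0.0533 to 0.0792), and the SAXO1 call not with the block (0.0503). RPS6 (-0.49, standard error 0.248), PLIN2 (-0.32, standard error 0.218) and ACER2 (0.15, standard error 0.193) did not pass. With total counts, SLC24A2 alone passed, the values of RRAGA, HAUS6 and DENND4C being -0.46, -0.33 and -0.39.

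In HEK UL1 KO, 4 of the 6 neighbours of RPS6 and PLIN2 differed (76.3% of all 34468 genes, 35.6% lower and 40.7% higher). SLC24A2 was again higher in NO (1.28, standard error 0.144, adjusted p = 4.45e-05 by edgeR's quasi-likelihood test). HAUS6 (-1.05, adjusted p = 7.64e-04), DENND4C (-0.84, adjusted p = 0.00108) and RRAGA (-0.56, adjusted p = 0.0245, and 0.20 with total counts) were lower. ACER2 (-0.41) and SAXO1 (-0.02) did not pass. RPS6 had a value of -1.12 (standard error 0.164) and PLIN2, whose knockout CN libraries held 1 to 6 counts, one of 2.00 (standard error 0.486). These values depended on the scaling. Total counts moved the median of all genes to 0.37 in HEK WT and 0.79 in HEK UL1 KO, where 825 genes were then lower and 18471 higher in NO. None of the calls of lower members in the knockout was kept (HAUS6 -0.29, DENND4C -0.08 and RRAGA 0.20, with RPS6 at -0.37), while SLC24A2 (2.03) was still higher and SAXO1 (0.74) passed as well. The call of RRAGA in the knockout was also lost with TMM without rRNA genes (-0.45), with at least 10 counts in every library (-0.13) and without replicate 1 (-0.44) or 2 (-0.39) of NO or replicate 2 of CN (-0.57), and that of DENND4C with at least 10 counts (-0.41).

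To ask whether the knockout values differed between NO and CN, genotype and fraction were fitted with their interaction, and 0 of 8 members passed (0.114% of all 37806 genes did). At an unadjusted p under 0.05 there were 2, PLIN2 and SAXO1. The share of all genes at that threshold was not counted, so nothing is read from the 2. PLIN2 had an interaction of 2.60 on the log2 scale (standard error 0.515, 2.62 with DESeq2 and 2.46 with no filter), its knockout level being nearer to the wild type in NO than in CN, which is a description because PLIN2 was picked by its knockout value. SAXO1 had -0.83 (unadjusted p = 0.0188 by edgeR's quasi-likelihood test, and not called after adjustment), its knockout level being lower relative to the wild type in NO than in CN. For RPS6 the interaction was -0.37 (standard error 0.368), a difference of about its own error.

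**Figure D5:**
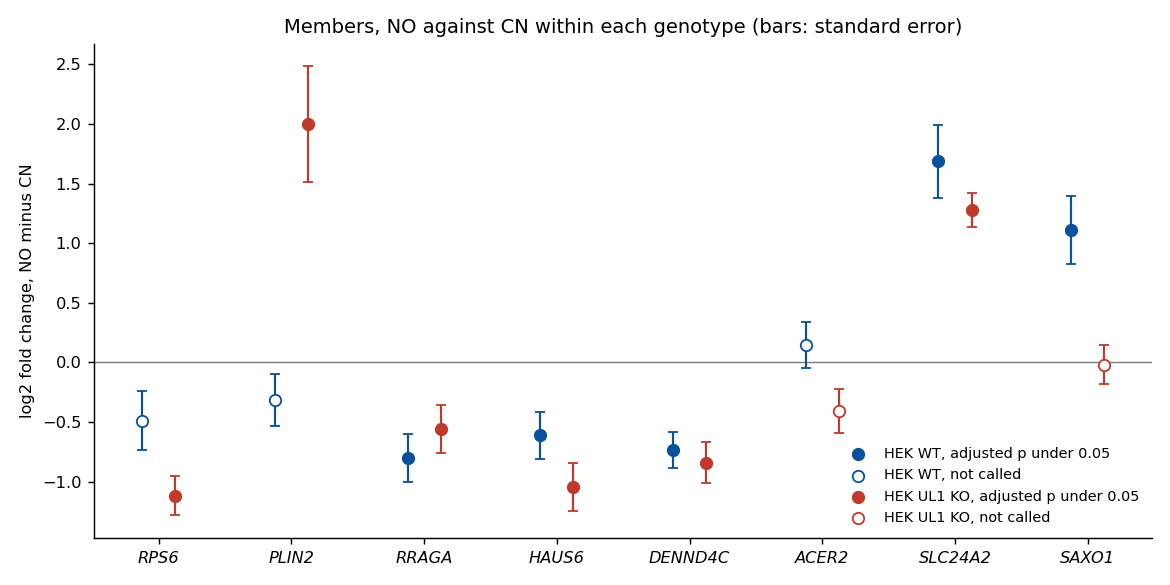
Log2 fold change between the fractions (NO minus CN) of each member in HEK WT (blue) and HEK UL1 KO (red), with standard errors as bars; filled points had an adjusted p under 0.05, from which nothing is read for RPS6 and PLIN2 in HEK UL1 KO. SLC24A2 was higher in NO in both lines, RRAGA, HAUS6 and DENND4C were lower in both, and PLIN2 went from -0.32 in HEK WT to 2.00 in HEK UL1 KO.

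The genes most like RPS6 and PLIN2 were looked for by the root mean square difference of log2 levels over the 12 libraries, each gene centred on its mean, among 16168 genes with a mean of at least 1 CPM. HAUS6 was the nearest of all to RPS6 (0.136), followed by SMC5, a gene of the long arm of chromosome 9 (0.149), SSR3 (0.156), AHCTF1 (0.173) and AHCTF1P1 (0.177). DENND4C was the 48th (0.266) and RRAGA the 196th. The other members were further from RPS6, with PLIN2 at place 4588 (0.633), ACER2 at 5450 (0.661), SAXO1 at 11947 (1.00) and SLC24A2 at 13841 (1.31). None of the 5 genes nearest to PLIN2, which were MKX (0.229), DECR1 (0.239), SLC13A3 (0.241), DDR2 (0.268) and MAP7D2 (0.268), was on chromosome 9, and the nearest member to it was RRAGA, at place 61. These distances mix genotype and fraction and are a description of 12 libraries.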

How the data were processed

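RNA of the NO and CN fractions was sequenced without rRNA depletion in single reads of 75 bases. Per the labels and the methods, the authors checked reads with FastQC 0.11.4, trimmed them with cutadapt 3.7, aligned them to GRCh38 with STAR 2.7.8 with up to 20 alignments per read and counted genes with featureCounts. What the authors deposited are raw counts of reads per gene, not normalized, in a table for each fraction. Reads with several alignments can be counted at copies of a gene. The annotation version and strand setting are not given in the sources used here. All 12 columns were matched to samples by their labels, with 0 left unmatched.

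Counts were analysed with edgeR 4.0.16 (quasi-likelihood F test, filterByExpr with a minimum count of 10, TMM, Benjamini-Hochberg adjustment, called under 0.05) in R 4.3.3 with limma 3.58.1, over all genes that passed the filter, and with DESeq2 1.42.0 as an alternative. The genotypes were compared within each fraction and the fractions within each genotype, and the interaction was fitted over 12 libraries. Tables, motifs and figures used Python 3.11.15, numpy 2.4.6, pandas 2.3.3, scipy 1.17.1 and matplotlib 3.10.9. CPM are counts per library size times TMM factor, as edgeR scales them, and CPM per kilobase uses exon lengths from GENCODE release 44. Gene positions are those of RefSeq on GRCh38.p14, and 130 of 151 RefSeq genes of the window were in the tables by symbol.

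The members and lists were chosen with earlier results of these data known. Genes named are the members, HNRNPUL1, every tested gene between the first and last member, the 5 largest falls and rises among the called genes elsewhere in the window in each fraction, the called gene of each list with the largest fall and rise (the fall among the 40S proteins is not reported here) and all genes of lists under 6, the 3 RPS6 copies with the most counts, and the 5 genes with the pattern nearest to RPS6 and to PLIN2 (log2 of CPM plus 0.5). CDKN2A, FOCAD and ADAMTSL1 were added after their values were seen. Alternatives were total counts, TMM without 616 rRNA genes, scaling to GAPDH (CN) or U3 (NO), a single fit of all 12 libraries, a minimum of 10 counts in every library, no filter, a replicate block, windows of 2 and 10 Mb and leaving out each library. Protein-coding genes alone and leaving out 2 libraries were chosen after seeing the data. Replicates of a group differed by a chi-square per gene of 17.1 or more, so all libraries were kept. The fits were tested on simulated counts.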

Additional observations from a re-analysis of the deposited data

How the results depend on the processing

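Replicates numbered alike in the labels did not deviate together (r from -0.467 to -0.0387 across genes), so the numbers were not taken to pair the libraries. With the number as a replicate block, the count of other window genes lower in HEK UL1 KO was 2 in NO and 14 in CN, the log2 fold changes were -1.71 (NO) and -1.26 (CN) for RPS6 and -2.45 and -4.87 for PLIN2, the members called between fractions were 3 in HEK WT (HAUS6 and SAXO1 were lost) and 6 in HEK UL1 KO, and the interaction called 0.

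In NO, the count of other window genes lower, 3 as reported, was 7 with DESeq2, 10 with no filter, 8 with all 12 libraries in one fit, 11 without replicate 3 of HEK WT and replicate 1 of HEK UL1 KO, and 0 with total counts or with U3 as the reference, and leaving out 1 library gave 0 (without replicate 1 of HEK WT or 2 of HEK UL1 KO) to 13 (without replicate 3 of HEK WT). In CN, 14 as reported, it was 9 with total counts, 6 with a window of 2 Mb and 9 with protein-coding genes alone, the last 2 counting fewer genes, and 12 to 14 without 1 library. The log2 fold change of RPS6 moved to -1.20 in NO and -1.07 in CN with total counts and to -0.88 and -1.62 with 1 reference gene, and was -2.11 to -1.49 in NO and -1.29 to -1.21 in CN without 1 library. That of PLIN2 moved to -1.94 in NO with total counts and to -1.63 and -5.21 with 1 reference gene, and was -2.59 to -2.27 in NO and -5.38 to -4.37 in CN without 1 library (replicates 1 and 2 of HEK UL1 KO). At least 10 counts in every library left no value for PLIN2 in CN. The members called between fractions were 1 (total counts) and 4 to 6 (without 1 library) in HEK WT, 5 as reported (52.8% of all genes). In HEK UL1 KO, with RPS6 and PLIN2 counted where tested, 6 were called. This became 3 (total counts, or at least 10 counts in every library) and 5 to 7 (without 1 library). Nothing is read from these HEK UL1 KO counts, since RPS6 and PLIN2 carry no test there and 76.3% of all genes were called. RRAGA reversed to 0.20 and SAXO1 to 0.74 in HEK UL1 KO with total counts. The interaction called 1 member, PLIN2, with DESeq2 or no filter and 0 without 1 library. The PLIN2 call is a description, because PLIN2 was picked by its knockout value. Beyond the construction of the settings, the causes were not tested.

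Over all genes, the NO count of 327 moved to 10 (total counts), 143 (at least 10 counts), 1069 (DESeq2), 1190 (no filter), 1744 (one fit), 4525 (without 2 libraries) and 11335 (U3, 11246 higher and 89 lower against 127 and 200), and to 123 to 9133 without 1 library. The CN count of 10323 moved to 5421 with total counts (3697 higher and 1724 lower, against 4253 and 6070) and 4217 in one fit, and GAPDH gave 1092 higher and 9068 lower. NO against CN moved from 15494 to 6993 (total counts), 8759 (at least 10 counts) and 9577 (replicate block) in HEK WT and from 26287 to 13163 (at least 10 counts) in HEK UL1 KO, and the interaction from 43 to 81 (DESeq2), 0 (total counts), 104 (no filter) and 20 (at least 10 counts), and to 25 to 57 without 1 library. At 10 to 35 counts in NO and 1 to 6 in CN per knockout library, PLIN2 is limited by depth.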

Other observations

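The long arm of chromosome 9 also held low values. In CN, the 50 protein-coding genes with a mean of at least 100 counts between the centromere and 90 Mb had a median log2 fold change (HEK UL1 KO minus HEK WT) of -1.02 and 27 were below -1, and the 212 genes after 90 Mb had a median of -0.33. In NO, the medians were -0.87 (54 genes) and -0.43 (204 genes). The 353 genes of the whole chromosome, members left out, had a median of -0.44 in CN, against -0.21 for the 9270 such genes of the genome, and the 349 genes in NO had -0.52, against -0.28 for 9569. The genes of the genome include the members with enough counts, and so do the bands that follow. When the genome was divided into bands of 5 Mb with at least 5 such genes, 8 of 534 bands had a median below -1 in CN, and 5 of these were among the 21 bands of chromosome 9. In NO, 6 of 545 bands did, 3 of them on chromosome 9. The stretches and bands were set after the profile of the chromosome had been seen, so these values are a description.

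Across the 316 protein-coding genes of chromosome 9 with enough counts in both fractions, members left out, the log2 fold changes in NO and CN were correlated (Pearson's r = 0.874, Spearman's rho = 0.834), which is a correlation across genes that share cell lines and are not independent replicates. SMC5, which was second in likeness to RPS6, lies on the long arm of this chromosome.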
